A study of Homo sapiens and Mus musculus with 92 samples.

Results

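Tetraspanins are small membrane proteins that cross the membrane 4 times and gather integrins, immunoglobulin-type receptors and proteases into patches of the cell surface. Several of them, CD63, CD81 and CD9 among others, are also enriched on exosomes. A subgroup called TspanC8 is named for the cysteines of its large extracellular loop, and several of its proteins carry the protease ADAM10 to the membrane. Blood cells and platelets are rich in members such as CD53, CD37, CD63, CD151 and TSPAN9. The family was taken here as every gene symbol made of TSPAN and a number alone, together with CD9, CD37, CD53, CD63, CD81, CD82, CD151, PRPH2, ROM1, UPK1A and UPK1B. This gave 33 of the 28103 symbols in each of the count tables, found by name.

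The data were RNA-seq counts from HEL, an established human erythroleukemic cell line that the labels describe as erythroblast. MLL1 (gene KMT2A) is a histone H3 lysine 4 methyltransferase and AF9 (gene MLLT3) is a subunit of elongation complexes and a frequent fusion partner of MLL1 in leukemia. In the MLL1 experiment 3 libraries of control cells were set against 3 of MLL1 KD cells, and in the AF9 experiment 2 control libraries were set against 2 of AF9 KD cells, each experiment with its own controls. The labels give the control genotype as WT, and per the methods of the study the controls carried a lentiviral control shRNA while each KD was made with 1 lentiviral shRNA (#1), so that all groups are transduced populations and not clones.

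Total counts lay between 6966345 and 14232408 per library, of which 7555 to 15726 fell on tetraspanins. The targeted genes followed the labels: KMT2A was lower in 3 of 3 MLL1 KD libraries (log2 fold change -0.66, adjusted p = 0.0724, edgeR's quasi-likelihood test), with adjusted p = 3.5e-07 when the replicate number was kept as a block, and MLLT3 was lower in 2 of 2 AF9 KD libraries (log2 fold change -2.43, adjusted p = 3.2e-08). In the MLL1 experiment replicate 1 of both groups stood apart from replicates 2 and 3. The chi-square per degree of freedom between libraries of 1 group was 30.2 to 56.6 for pairs with replicate 1 and 2.37 to 2.66 for replicates 2 and 3. Values without replicate 1 are therefore given where they differ. All 8 erythroid markers examined and 5 of 6 megakaryocyte markers (VWF being the exception) reached 1 TPM in at least 1 library of each experiment, whereas MS4A1, CD3E, CD14, MPO and ELANE stayed under 1 TPM in every library. Other markers of the same cell types were present in controls of the MLL1 and AF9 experiments, the lymphocyte gene CD79A with a mean of 18.5 and 6.03 TPM, the myeloid gene LYZ with 44.2 and 221 TPM and the epithelial gene KRT18 with 62.2 and 46.8 TPM. The summed level of the erythroid markers was 2600 to 3340 TPM in controls and 2000 to 2350 TPM in MLL1 KD cells, with 0 of 8 called, though the blocked fit called ALAS2 (-1.78, adjusted p = 2.5e-06) and HBG2 (-0.72, adjusted p = 2.4e-06) lower and the megakaryocyte gene PF4 higher (1.19, adjusted p = 6.6e-04). In the AF9 experiment the erythroid sum was 35200 TPM in both controls and 23700 to 28200 TPM in KD cells. It was mostly the fetal globins HBG1 and HBG2 (9037 and 24540 TPM in controls), the 2 of 8 that were called lower. GATA1, KLF1, TFRC, EPOR and ALAS2 had both AF9 KD libraries above the controls, at 0.27 to 0.58, and all but GATA1 passed the adjusted p, short of 1.5-fold. The 6 megakaryocyte markers summed to 1730 to 1880 TPM in controls and 1480 to 1680 TPM in MLL1 KD cells, and to 911 to 1090 TPM and 995 to 1340 TPM in the AF9 experiment. The part of either list in the results below was not tested, and in such bulk samples fewer cells of a type and less RNA per cell cannot be told apart. Nothing in the labels says that replicates came from separate cultures, so the p-values measure the spread between these libraries, which may be technical.

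The stretches just upstream of RefSeq starts of 3 members are shown because these genes carry the results that follow: TSPAN17, called in AF9 KD cells, TSPAN15, with the largest negative log2 fold change in MLL1 KD cells, and CD53, whose log2 fold change was positive in both experiments. TSPAN15 and CD53 were singled out after their values were seen. Each line gives the 250 bases before a RefSeq start on GRCh38.p14, read 5′ to 3′ on the plus strand, with every CG dinucleotide in capitals, since MLL1 is known to bind unmethylated CpG through its CXXC domain.
TSPAN17, chr5:176647234-176647483: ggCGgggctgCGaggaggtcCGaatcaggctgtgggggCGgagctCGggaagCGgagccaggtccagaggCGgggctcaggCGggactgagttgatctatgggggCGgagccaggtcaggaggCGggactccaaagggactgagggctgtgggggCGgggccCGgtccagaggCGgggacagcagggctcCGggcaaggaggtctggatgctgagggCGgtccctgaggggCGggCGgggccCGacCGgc
TSPAN15, chr10:69451215-69451464: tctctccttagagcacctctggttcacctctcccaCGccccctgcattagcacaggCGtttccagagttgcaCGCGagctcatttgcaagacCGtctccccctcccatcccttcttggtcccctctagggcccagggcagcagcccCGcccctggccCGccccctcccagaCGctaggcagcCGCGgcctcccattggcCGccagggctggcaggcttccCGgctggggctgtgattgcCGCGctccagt
CD53, first start, chr1:110870960-110871209: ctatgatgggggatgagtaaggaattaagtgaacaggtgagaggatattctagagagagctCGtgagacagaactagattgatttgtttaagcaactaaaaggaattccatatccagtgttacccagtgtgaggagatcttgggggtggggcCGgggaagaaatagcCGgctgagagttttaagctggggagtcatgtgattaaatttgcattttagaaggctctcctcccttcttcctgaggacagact
CD53, second start, chr1:110872898-110873147: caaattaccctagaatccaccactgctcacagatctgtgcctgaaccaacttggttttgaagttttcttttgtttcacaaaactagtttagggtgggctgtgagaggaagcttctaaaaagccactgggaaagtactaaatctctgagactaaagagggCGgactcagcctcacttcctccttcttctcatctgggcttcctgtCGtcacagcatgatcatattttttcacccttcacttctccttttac
The stretch of TSPAN17 held 19 CG dinucleotides, that of TSPAN15 held 14, and those of CD53 held 3 and 2. Over all 35116 RefSeq windows of this length the median was 11, and 34.6%, 44.8%, 77.1% and 85.3% of them held at least as many as these 4. Gene positions given elsewhere are from GENCODE, by which TSPAN17 starts at 176647387 and CD53 at 110871188. The TSPAN17 window and the first CD53 window run past these starts. The second CD53 window lies inside the gene. RefSeq windows were found for 25 of the 33 members, 45 windows in all, with a median of 10 CG dinucleotides and a range from 1 in windows of CD9, TSPAN8 and TSPAN16 to 45 in TSPAN14. The letters AGATAA or TGATAA, the core of the sites known for GATA factors, occurred on either strand in 3 of the 45 windows (6.7%), those of PRPH2, TSPAN12 and TSPAN16, and in 14.6% of all windows. For TSPAN32, CD81, CD151, CD37, TSPAN3, TSPAN7, TSPAN9 and TSPAN18 no window was used here.

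HEL cells transcribed most of the family. A mean of at least 1 TPM (counts per length of the merged exons, scaled to the same total in each library) over the libraries of an experiment was reached by 23 of the 33 members, and they were the same 23 in both experiments. The 10 others were TSPAN1, TSPAN8, TSPAN10, TSPAN11, TSPAN16, TSPAN18, TSPAN19, PRPH2, UPK1A and UPK1B. Among them are the structural proteins of photoreceptor discs (PRPH2) and of the urothelial plaque (UPK1A and UPK1B). In the AF9 experiment none of the 10 had more than 4 counts in a library. In the MLL1 experiment the highest count among them was 21, for TSPAN18 in MLL1 KD replicate 3. A count of 0 allows up to 3 counts, which is 0.218 to 0.425 CPM (a gene's counts relative to the TMM-scaled library total) in these libraries, an interval that covers counting error only.

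By TPM from merged exons the leading members were proteins known from leukocytes and platelets. In controls of the MLL1 experiment the order was led by CD82, a metastasis suppressor also called KAI1, at 169 TPM ± 14.0 (SD, n = 3), then CD63, a protein of late endosomes and exosomes, at 123 ± 14.6, and CD37, a lymphoid tetraspanin, at 95.1 ± 4.98. The ranges of these 3 over libraries did not overlap with each other or with those below them. Such ranges leave out the choice of gene length, on which the order also depends. CD151, which binds laminin-receptor integrins, had 63.9 TPM ± 6.49, TSPAN32 had 59.5 ± 8.93, TSPAN33 had 58.5 ± 4.61 and CD53, found across leukocytes, had 57.2 ± 6.95. Neighbours among these 4 did not differ beyond their spread. The 33 members together came to 909.7 TPM, and the leading 5 held 56.2% of it.

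Controls of the AF9 experiment had another order. CD63 came first with 284.8 TPM ± 5.80 (SD, n = 2), followed by TSPAN33, a TspanC8 protein known from erythroblasts, with 108 ± 5.53, and TSPAN13 with 98.9 ± 11.2. CD63 lay apart from TSPAN33, while the ranges of TSPAN33 and TSPAN13 overlapped. CD37 at 73.4 ± 15.1, CD53 at 71.4 ± 7.95 and CD82 at 66.2 ± 8.07 overlapped with each other. TSPAN32 stood 13th with 20.8 ± 2.98. The sum over the family was 1044 TPM, with 61% in the leading 5. Levels were not compared between the experiments, and TPM from merged exons are low for genes with many annotated exons, such as TSPAN14, whose merged exons span 17790 bases against 5547 in its canonical transcript. The same holds for CD81 (7986 against 1482) and CD37 (4161 against 1259), and less so for CD82 (4039 against 2212) and TSPAN33 (3530 against 2951). The order of members in either experiment thus depends on the lengths used, and the order by canonical length was not computed.

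**Figure D1:**
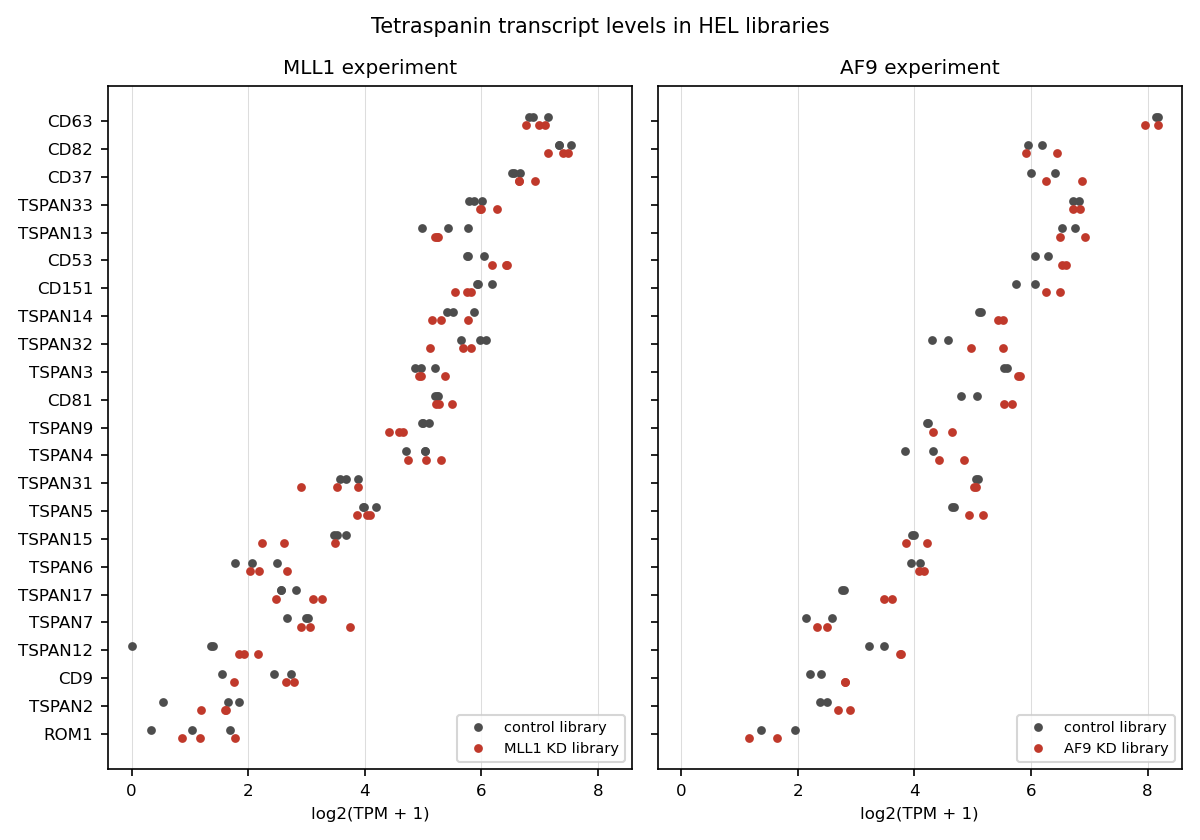
Level of the 23 tested tetraspanins as log2(TPM + 1) on the x axis, 1 row for each gene, with a point for each control (grey) and KD (red) library of the MLL1 experiment (left, 3 and 3) and the AF9 experiment (right, 2 and 2). CD63 and CD82 are at the upper end, with 123 and 169 TPM in controls of the MLL1 experiment, and ROM1 is at the lower end with 1.18 TPM.

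TSPAN32 and TSPAN17 were called higher in AF9 KD cells in the main fit, and no tetraspanin was called lower. With the offsets for GC content described below neither gene was called. Genes were called when they passed an adjusted p of 0.05 in edgeR's quasi-likelihood test over the 13331 genes tested and moved by 1.5-fold or more. The 2 calls are 8.70% of the 23 tested members, and 8.02% of all genes tested were called higher, so the share in the family is near that of all genes. Of all genes tested 5.06% were called lower. At an unadjusted p under 0.05 in edgeR's test 9 of the 23 members were higher and 0 were lower, beside 40.6% of all genes in either direction. The share of all genes in each direction was not computed at this threshold. DESeq2 called the same numbers as edgeR, 2 higher and 0 lower.

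TSPAN32 (chr11:2301997-2318204 on hg38, plus strand) is a tetraspanin of blood cells known for restraining T cell proliferation and for supporting the platelet integrin ITGA2B-ITGB3. It had 16.5 and 20.55 CPM in the AF9 control libraries and 25.4 and 36.9 CPM in the AF9 KD libraries. Both KD libraries lay above both controls, and the KD libraries differed from each other by more than the controls did. The log2 fold change was 0.75 (SE 0.18, 95% interval 0.38 to 1.13, 1.69-fold, adjusted p = 0.0062). Without AF9 KD replicate 2 it was 0.46 (adjusted p = 0.0345) and under 1.5-fold.

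TSPAN17 (chr5:176647387-176659054, plus strand) belongs to the TspanC8 subgroup. Its level was 7.04 and 7.30 CPM in the AF9 controls and 12.8 and 11.4 CPM in the AF9 KD libraries, from 97 and 87 counts against 166 and 153. The groups lay apart by more than the spread within either of them. The log2 fold change was 0.76 (SE 0.18, 95% interval 0.38 to 1.14, 1.69-fold, adjusted p = 0.0064). Without control replicate 1 it was 0.73 with adjusted p = 0.0628, no longer a call. Over the alternatives the adjusted p ran from 5.9e-05 to 0.0899 for TSPAN17 and from 2.9e-08 to 0.387 for TSPAN32.

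CD81 and CD151 passed the adjusted p but not the fold. CD81, a widely expressed tetraspanin of exosomes and named here after its values were seen, had 50.1 and 61.6 CPM in controls and 79.9 and 85.8 CPM in AF9 KD libraries. That was 1.48-fold (log2 fold change 0.57, SE 0.11, adjusted p = 0.0025). CD151 had 47.5 and 60.9 CPM in controls and 64.8 and 74.6 CPM in AF9 KD libraries (log2 fold change 0.37, SE 0.13, adjusted p = 0.0432). With these, 4 of 23 members were higher at an adjusted p under 0.05 regardless of fold, beside 14.4% of all genes. TSPAN32, CD81 and CD151 lie on chromosome 11, where 58 kb separate TSPAN32 from CD81 and 2.98 kb separate CD151 from TSPAN4. CD82 and ROM1 lie on chromosome 11 too, with log2 fold changes of 0.03 and -0.49 in AF9 KD cells, as does TSPAN18, which was not tested. TSPAN4, known from migrasomes and also named after its values were seen, had 18.0 and 26.2 CPM in controls and 26.4 and 35.1 CPM in AF9 KD libraries, a log2 fold change of 0.48 (SE 0.18) that did not pass (adjusted p = 0.0569). With the GC offsets described below it was -0.26.

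The members with the highest TPM were not called in AF9 KD cells. CD63 had 158.6 and 165.4 CPM in controls and 131.6 and 151.2 CPM in AF9 KD libraries, so that all KD values lay below the controls (log2 fold change -0.20, SE 0.10, adjusted p = 0.151). TSPAN33 had 92.4 and 87.1 CPM against 81.2 and 86.7 CPM (log2 fold change -0.10, 95% interval -0.30 to 0.11). TSPAN13 had 49.9 and 43.1 CPM against 53.0 and 38.5 CPM, and its KD values lay on both sides of the controls. CD37 had 60.95 and 82.7 CPM in controls and 69.4 and 104.5 CPM in AF9 KD libraries, CD53 had 38.7 and 33.5 CPM against 45.4 and 42.3 CPM, and CD82 had 57.0 and 68.6 CPM against 52.7 and 75.3 CPM. Of these 3 only CD53 had KD values all above its controls (log2 fold change 0.28, adjusted p = 0.0938).

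**Figure D2:**
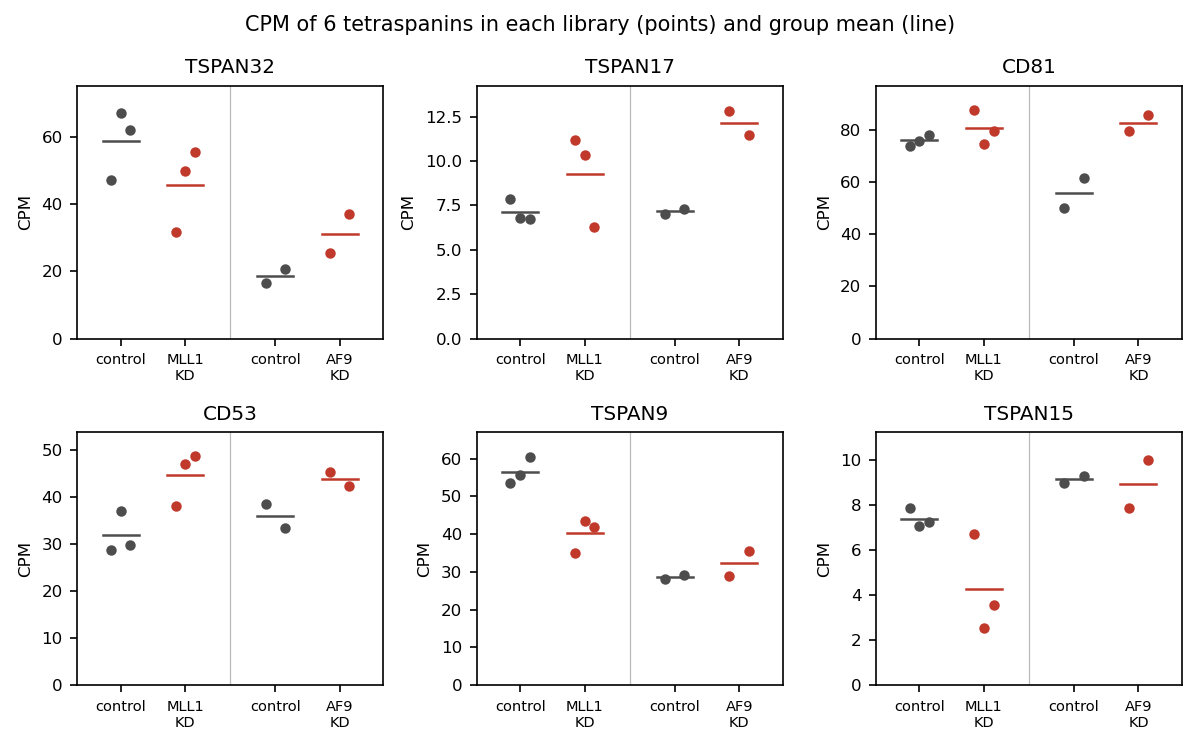
CPM in each library (points) and group mean (line) for TSPAN32, TSPAN17, CD81, CD53, TSPAN9 and TSPAN15, with controls in grey and KD libraries in red, the MLL1 experiment left of the line and the AF9 experiment right of it; the y axes start at 0. TSPAN32 is at 16.5 and 20.55 CPM in the AF9 controls and at 25.4 and 36.9 CPM in AF9 KD cells, while its MLL1 KD points overlap with their controls.

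By subgroup, AF9 KD gave positive log2 fold changes in 6 of the 7 leukocyte and platelet CD members (median 0.28), in 3 of 5 tested TspanC8 members (median 0.25) and in 7 of 10 other TSPAN members (median 0.15). ROM1, a photoreceptor disc protein at 2.22 TPM in controls, had -0.49 (SE 0.51). Over all 23 members 16 were positive with a median of 0.25, beside 50.9% positive and a median of 0.01 over all genes tested. AF9 KD libraries lay all on 1 side of the controls for 15 members (12 above and 3 below, 65.2%), and the same held for 66.0% of all genes tested.

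**Figure D3:**
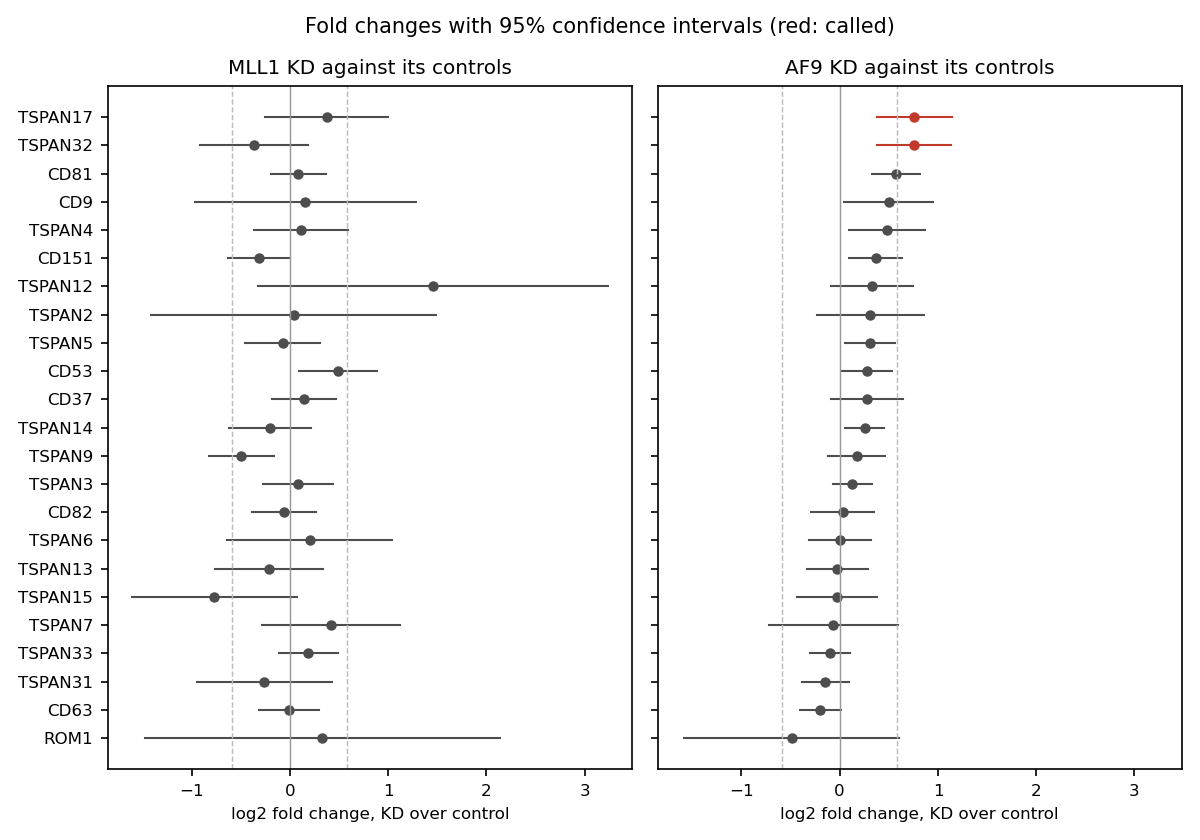
Log2 fold change of KD over control (points) with 95% confidence intervals (lines) for the 23 tested members in the MLL1 experiment (left) and the AF9 experiment (right), ordered by the AF9 value; dashed lines mark 1.5-fold and red marks a call. TSPAN17 (0.76) and TSPAN32 (0.75) in AF9 KD cells are the calls, and the interval of TSPAN12 in MLL1 KD cells runs from -0.33 to 3.24.

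Fold changes in AF9 KD cells moved with the GC content of the exons. The median log2 fold change of all genes tested went from -0.23 for exons of 30 to 34% GC to 0.39 at 58 to 62%, 0.59 at 62 to 66% and 0.84 at 66 to 70%. In the bins that hold TSPAN17 (59.3% GC) and TSPAN32 (64.1% GC), 21.2% and 40.3% of genes were called higher. Tetraspanin exons are GC-rich, with a median of 56.8% over the tested members against 47.6% over all genes tested. Spearman's rho of GC content and log2 fold change over the 23 members, which share these 4 libraries, was 0.255 in the AF9 experiment. In the MLL1 experiment it was -0.28. Over all genes tested Spearman's rho was 0.48 in the AF9 experiment and -0.069 in the MLL1 experiment.

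With offsets for each library's GC trend no tetraspanin was called in AF9 KD cells, while 7.97% of all genes tested were called in either direction. TSPAN17 then had a log2 fold change of 0.42 (adjusted p = 0.0899), TSPAN32 0.15 (adjusted p = 0.387), CD81 -0.00052 (adjusted p = 0.997) and CD151 -0.15 (adjusted p = 0.217). TSPAN4, the most GC-rich tested member at 66.9%, turned from 0.48 to -0.26 (adjusted p = 0.112), and TSPAN9 turned from 0.17 to -0.18 (adjusted p = 0.216). The family median was 0.03, with 13 of 23 positive. At an adjusted p under 0.05 regardless of fold, 3 members were higher under these offsets (CD53, TSPAN5 and TSPAN14, 0.23 to 0.39) and 2 were lower, CD63 with -0.47 (adjusted p = 0.0011) and TSPAN33 with -0.32 (adjusted p = 0.016). Of all genes 12.2% were higher and 14.2% lower by that criterion.

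**Figure D4:**
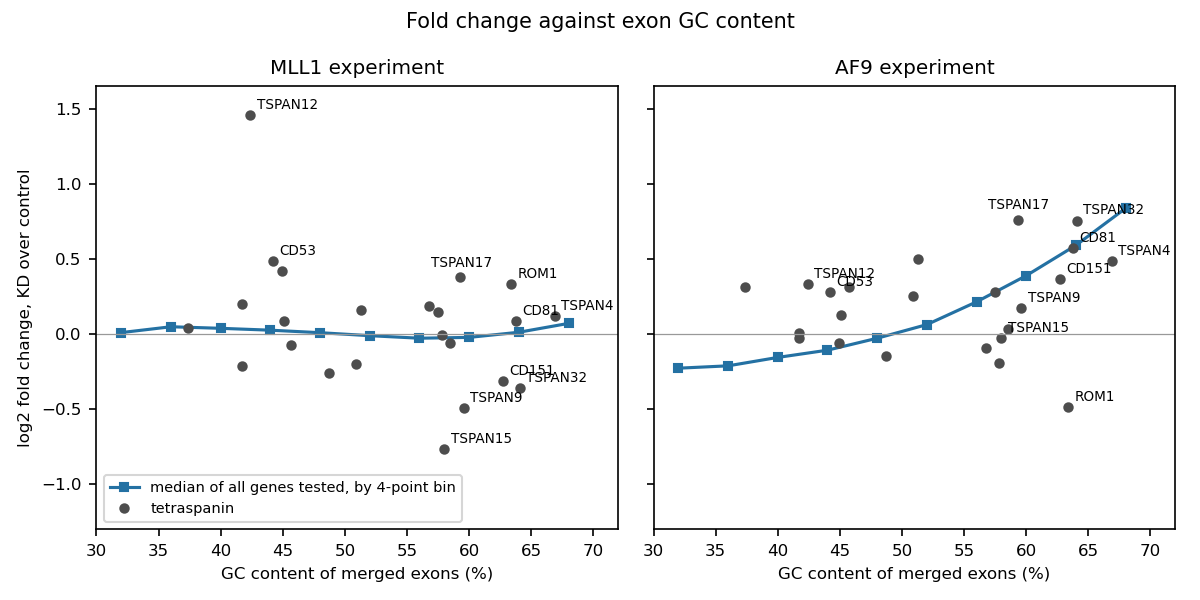
GC content of the merged exons (x axis, %) against log2 fold change of KD over control (y axis) for the tested tetraspanins (grey points) and the median of all genes tested in bins of 4 percentage points with at least 50 genes (blue squares), in the MLL1 experiment (left) and the AF9 experiment (right). In the AF9 experiment the blue line rises from -0.23 to 0.84 and CD81 (63.8% GC) lies close to it, whereas in the MLL1 experiment the line runs from -0.03 to 0.07.

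MLL1 KD gave no call in the family. Over the 14393 genes tested 0.0278% were called higher and 0.0347% lower, and 3 members had an unadjusted p under 0.05 in edgeR's test, 1 higher and 2 lower, beside 9.97% of all genes. DESeq2 called 0 members as well. The titles give replicate numbers but do not say that these pair the libraries, and the check of deviations set only replicate 1 apart. Since replicate 1 stood apart in both groups, a fit with the replicate number as a block is also given. That fit called 4.72% of all genes but again 0 tetraspanins at 1.5-fold. At an adjusted p under 0.05 regardless of fold it held 4 of 23 members, beside 13.6% of all genes: CD53 was higher, and TSPAN9, TSPAN32 and CD151 were lower.

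CD53, which holds L-selectin at the leukocyte surface, had 28.8, 37.1 and 29.8 CPM in controls and 38.1, 47.1 and 48.8 CPM in MLL1 KD libraries. All KD values lay above all controls. The log2 fold change was 0.49 (SE 0.17, adjusted p = 0.38) and in the blocked fit 0.49 with adjusted p = 0.0113, which is 1.40-fold in the unblocked fit. TSPAN9, a platelet tetraspanin found near the collagen receptor GPVI and named after its values were seen, had 53.6, 55.6 and 60.35 CPM in controls and 35.0, 43.5 and 41.9 CPM in MLL1 KD libraries. All its KD values lay below all controls (log2 fold change -0.49, SE 0.14, adjusted p = 0.288, blocked adjusted p = 0.0042).

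TSPAN32 had 47.1, 67.0 and 61.9 CPM in controls and 31.7, 49.9 and 55.5 CPM in MLL1 KD libraries. The groups overlapped, since control replicate 1 lay below KD replicates 2 and 3, but each KD library lay below the control of its own number. The log2 fold change was -0.36 (SE 0.24, adjusted p = 0.699) without the block and -0.38 (adjusted p = 0.0273) with it. CD151 had 69.6, 62.5 and 60.6 CPM in controls and 53.7, 46.4 and 54.6 CPM in MLL1 KD libraries, all below the controls (log2 fold change -0.32, SE 0.13, adjusted p = 0.49, blocked adjusted p = 0.0465).

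TSPAN15, a TspanC8 protein that promotes shedding of N-cadherin by ADAM10, had the largest negative log2 fold change of the family in MLL1 KD cells, -0.77 (SE 0.36, adjusted p = 0.553, blocked adjusted p = 0.0541). Its controls had 61, 51 and 57 counts, and the MLL1 KD libraries had 68, 18 and 33. KD replicates 2 and 3 were thus far below every control, while KD replicate 1, the most deeply sequenced of them, was at 6.73 CPM beside 7.88, 7.06 and 7.26 CPM in controls. With replicates 2 and 3 alone TSPAN15 was the only tetraspanin called, at -1.21 (SE 0.33, adjusted p = 0.0034), where 4.88% of all genes were called. In those 4 libraries 18.6% of all genes passed an adjusted p under 0.05 regardless of fold, and so did CD53 (0.52), TSPAN9 (-0.45), TSPAN32 (-0.29), CD151 (-0.29) and TSPAN14 (-0.25).

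The remaining members named for their level were not called. CD82 had 187.5, 172.0 and 169.9 CPM in controls and 140.5, 176.5 and 189.4 CPM in MLL1 KD libraries, CD63 had 85.0, 71.9 and 74.6 CPM against 81.8, 79.1 and 69.25 CPM, and CD37 had 95.5, 102.2 and 109.8 CPM against 102.0, 106.8 and 131.4 CPM. The groups of all 3 overlapped. TSPAN33 had 56.2, 50.8 and 53.1 CPM in controls and 66.5, 57.7 and 57.8 CPM in MLL1 KD libraries, all above the controls, with a log2 fold change of 0.19 (adjusted p = 0.717). TSPAN13 had 15.4, 28.5 and 22.0 CPM against 18.3, 18.7 and 19.7 CPM, and TSPAN17 had 7.88, 6.78 and 6.75 CPM against 11.2, 10.35 and 6.27 CPM. TSPAN12, a coreceptor of the Norrin receptor FZD4, named after its values were seen and the member with the highest log2 fold change, 1.46 (SE 0.77, adjusted p = 0.597), rested on 10, 0 and 11 counts in controls and 29, 17 and 21 in MLL1 KD libraries.

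Over the 23 members tested in MLL1 KD cells 13 log2 fold changes were positive and the median was 0.08, beside 51.4% positive and a median of 0.01 over all genes tested. The median was 0.09 in the 7 CD members, -0.07 in the 5 TspanC8 members and 0.06 in the 10 other TSPAN members. KD libraries lay all on 1 side of the controls for 3 members above (CD53, TSPAN33 and TSPAN12) and 3 below (CD151, TSPAN9 and TSPAN15), which is 26.1% of the members, and this was so for 17.7% of all genes tested.

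Whether the response of a member differed between the experiments was tested directly in a fit of all 10 libraries, as the AF9 log2 fold change minus the MLL1 log2 fold change. No tetraspanin passed an adjusted p under 0.05 in edgeR's test, where 1.35% of the 12729 genes tested did, and 4 had an unadjusted p under 0.05, beside 17.3% of all genes. TSPAN32 had the largest positive difference, 1.09 (SE 0.37, 95% interval 0.26 to 1.92, adjusted p = 0.169). Its values were 0.75 in the AF9 experiment and -0.36 in the MLL1 experiment. CD151 had a difference of 0.66 (95% interval 0.20 to 1.13, adjusted p = 0.143), TSPAN9 0.65 (0.19 to 1.105, adjusted p = 0.15) and CD81 0.46 (0.06 to 0.87, adjusted p = 0.229).

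With the replicate number as a block within each experiment, 24.4% of all genes passed this test and so did 5 tetraspanins, TSPAN32 (adjusted p = 3.0e-04), CD151 (0.0034), TSPAN9 (0.0087), TSPAN14 (0.0103) and CD81 (0.0221). Under GC offsets together with the block the difference of TSPAN32 was 0.52 (adjusted p = 0.0603), and the members that passed were CD63 with -0.50 (adjusted p = 0.0153), TSPAN33 with -0.55 (0.0113) and TSPAN14 with 0.40 (0.0272), beside 14.6% of all genes. CD151 then had 0.16, TSPAN9 0.28 and CD81 -0.088, the last with its sign turned. Only TSPAN14 passed in both of these fits, and without the block 0 members passed with GC offsets or without them. The GC offsets joined with the block were chosen after seeing the data.

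Known partners of tetraspanins were examined as a list of 31 genes. The list was chosen with earlier results of these data known. Counts over it therefore cannot show whether partners respond more often than other genes. It held proteases, immunoglobulin-type proteins, integrins, factors of exosome formation and other membrane partners. Of these partners 26 were tested in each experiment. In MLL1 KD cells 0 were called by edgeR and by DESeq2, and 8 had an unadjusted p under 0.05, beside 9.97% of all genes. The blocked fit called 3 partners, beside 4.72% of all genes. IGSF8, an immunoglobulin-type partner of CD81 and CD9, was higher, with 19.6, 14.4 and 14.0 CPM in controls and 35.0, 22.5 and 24.3 CPM in MLL1 KD libraries (log2 fold change 0.76 with the block, adjusted p = 0.0017). CD44, the hyaluronan receptor, was higher too, with 136.7, 88.7 and 80.2 CPM in controls and 234.9, 148.4 and 161.0 CPM in KD libraries (0.84, adjusted p = 2.6e-06). ITGB7, the beta chain of gut-homing integrins, was lower at 4.002, 5.81 and 3.565 CPM against 1.58, 0.85 and 2.59 CPM (-1.37, adjusted p = 0.0331). For each of these 3 the groups did not overlap.

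In AF9 KD cells 5 of the 26 tested partners were called, 2 higher and 3 lower, beside 13.1% of all genes, with 10 at an unadjusted p under 0.05, beside 40.6% of all genes. IGSF8 rose from 4.72 and 7.045 CPM in controls to 9.82 and 11.6 CPM (log2 fold change 0.87, adjusted p = 0.009), and IGSF3, of the same protein family, rose from 59.6 and 59.0 CPM to 97.5 and 84.7 CPM (0.62, adjusted p = 8.2e-04). ITGAV, the alpha chain of the vitronectin receptor, fell from 103.9 and 90.3 CPM to 34.6 and 41.7 CPM (-1.35, adjusted p = 1.0e-05). KIT, the stem cell factor receptor, fell from 826.2 and 559.2 CPM to 277.7 and 436.7 CPM (-0.96, adjusted p = 0.0025), and CD44 fell from 97.3 and 93.3 CPM to 58.15 and 62.7 CPM (-0.66, adjusted p = 4.0e-04). The median over the tested partners was -0.12 in AF9 KD cells and -0.03 in MLL1 KD cells. Under GC offsets IGSF8 was no longer called (0.29, adjusted p = 0.25), nor were IGSF3 (0.53, adjusted p = 0.002) and CD44 (-0.52, adjusted p = 0.0012), which fell short of 1.5-fold. ITGAV and KIT kept their calls under these offsets, and IFITM1, an interferon-induced membrane protein named after its values were seen, gained one (-0.67, adjusted p = 6.5e-04, against -0.39 without offsets). Without control replicate 1 IGSF8 was not called either (0.60, adjusted p = 0.163), and without AF9 KD replicate 1 IGSF3 was under 1.5-fold (0.52). DESeq2 called 4 of these 5, with an adjusted p of 0.0814 for KIT. ADAM10, the protease carried by TspanC8 proteins, had 316.2 and 287.3 CPM in AF9 controls and 251.6 and 253.1 CPM in AF9 KD libraries and was not called (-0.26, adjusted p = 0.0543).

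Parts of some members also occur in other genes, and how reads from such parts were counted was not examined. Of the 31-base stretches of the canonical TSPAN7 transcript 37.7% occur in a readthrough gene model. For TSPAN31 12.2% and for CD82 8.2% of them occur in transcripts of other genes. The exons of TSPAN31 and ROM1 overlap genes on the opposite strand over 30.9% and 30.1% of their length, and those of TSPAN32 overlap C11orf21 over 2.03%. The libraries keep the strand. TSPAN17, CD53, TSPAN9 and TSPAN15 share no such stretch and no exon with another gene.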

How the data were processed

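Poly(A) RNA of HEL cells was sequenced by the authors as strand-specific libraries. Per the submitters' processing notes and the methods of the study, reads were trimmed with fastp 0.13.1, aligned to hg38 with HISAT2 2.1.0 and counted per gene on the stranded setting with featureCounts 1.6.1. The deposited values are raw counts, 1 table for each experiment with its own controls. The annotation behind the symbols is not given in the sources used here. Other assays of the study were not analysed here.

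Lengths, GC content and positions came from GENCODE v44 (hg38), in which 25972 of the 28103 symbols (92.4%) were matched. Genes whose TPM averaged 1 or more in an experiment were tested with edgeR 4.0.16 (quasi-likelihood, TMM scaling, R 4.3.3) and Benjamini-Hochberg adjustment over all genes tested. A call needed an adjusted p under 0.05 and a fold change of at least 1.5. Printed CPM use TMM-scaled totals. The difference between experiments was a contrast in 1 fit of all 10 libraries, called at an adjusted p under 0.05. Alternatives were DESeq2 1.42.0, other scalings and filters, a replicate block, offsets from each library's GC trend (lowess span 0.3), and leaving out each library. A permutation test of 1 gene could not go below p = 0.1 with 3 against 3 libraries or 0.333 with 2 against 2. The fit was tried on simulated counts with the same spread for every gene and without a replicate effect or GC trend. That trial cannot show how the fit behaves where such effects are present. Figures were drawn with matplotlib 3.10.9.

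In the MLL1 experiment libraries of the same replicate number deviated together from their group means (correlations 0.648, 0.326 and 0.352). The main fit took no pairs, and the replicate number was a block only in alternative fits. Replicates 2 and 3 were not told apart by this check, since control 2 with KD 3 gave 0.369 and control 3 with KD 2 gave 0.359, and only replicate 1 stood out. For replicates 2 and 3 the blocked p-values therefore rest on the numbers in the titles alone. Groups and replicate numbers came from the sample titles. The family members and partner lists were chosen with earlier results of these data known. Named with per-library values were TSPAN32, members called in either experiment or in the blocked MLL1 fit, members called for the difference, the 5 members with the highest control TPM in either experiment, and partners called in these fits. Any other gene was named after its values were seen.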

Additional observations from a re-analysis of the deposited data

How the results depend on the processing

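The count of tetraspanins called in MLL1 KD cells was 0 in every alternative run except with replicates 2 and 3 alone, where it was 1 (TSPAN15), and it was 0 to 0 when 1 library was left out. The 2 calls in AF9 KD cells became 4 without a fold threshold and 0 at a 2-fold threshold, 0 with GC offsets and 0 with GC offsets and the replicate block, and 1 to 4 when 1 library was left out. The call was TSPAN32 alone without control replicate 1 and TSPAN17 alone without AF9 KD replicate 2, and CD81 and TSPAN4 joined both without control replicate 2 or without AF9 KD replicate 1. With scaling to total counts CD81 joined them, and the median of all genes moved to 0.10 on the log2 scale. The difference between experiments held 0 members, 5 with the replicate block and 3 with the block and GC offsets, and 0 when 1 library was left out.

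The AF9 replicates share only a number (correlation 0.156 over 2 pairs). With the replicate block there, 2 members were called and 10 (43.5%) passed the adjusted p alone, beside 40.9% of all genes, and blocked values not given beside a result changed no call in the family.

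Signs of several members turned. In MLL1 KD cells CD63 was 0.033 with GC offsets and 0.030 with the block added, 0.0065 with replicates 2 and 3 alone and -0.059 to 0.065 with 1 library left out. CD82 was 0.095 with replicates 2 and 3 alone and -0.15 to 0.052 with 1 left out, and TSPAN13 was -0.42 to 0.015 with 1 left out. In AF9 KD cells CD151 was -0.15 and CD82 -0.27 with GC offsets, and -0.15 and -0.28 with the block added. TSPAN4 was -0.26 in both, TSPAN9 -0.18 and TSPAN7 0.029 with GC offsets. TSPAN13 was 0.062 with total counts, 0.12 with GC offsets and 0.11 with the block added. With 1 library left out CD37 was -0.039 to 0.55, CD82 -0.24 to 0.27 and TSPAN13 -0.27 to 0.19. For the difference between experiments CD37 was -0.17, CD82 -0.25 and CD81 -0.09 with GC offsets, with or without the block, TSPAN4 was -0.34 in both, and with 1 library left out CD37 was -0.22 to 0.37, CD82 -0.21 to 0.30 and TSPAN13 -0.084 to 0.38. The cause was not tested.

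Over all genes, calls in the MLL1 experiment numbered 9, against 218 with DESeq2, 32 without the filter, 680 with the block, 675 with the block and GC offsets, 704 with replicates 2 and 3 alone and 0 to 53 with 1 library left out. In the AF9 experiment they numbered 1744, against 3862 without a fold threshold, 510 at 2-fold, 1062 with GC offsets and 1054 to 1971 with 1 left out. The difference held 172 genes, 3105 with the block, 52 with GC offsets, 1857 with both and 1 to 969 with 1 left out. Depth limits the members with few reads, such as TSPAN12 with 0 to 29 counts in the MLL1 experiment.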
